A study of Homo sapiens with 3 samples.

Results

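Host genes of small RNAs were read from gene-level counts of HEK293 cells, a widely used human line that came from embryonic kidney and carries adenovirus DNA. The members were chosen by symbol alone: 37 microRNA hosts, whose symbols begin with MIR and end in HG, and 22 snoRNA hosts, which are the numbered SNHG genes and GAS5. These are 59 of the 26485 gene names in the tables, and all were kept whatever their counts. The series holds 3 libraries of untreated HEK293 cells grown in DMEM with fetal calf serum, which form 1 group (n = 3). No contrast between conditions exists, so the comparisons open to the data were between the classes of host within each library and between the replicates. Whether the replicates came from separate cultures is not stated, so the spread between them may be technical. The p-values below therefore apply to these samples only.

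A host gene carries the sequence of one or more small RNAs inside its own transcript. In a microRNA host the hairpin is cut out of an intron or exon by DROSHA and DGCR8 and then trimmed by DICER1, and the mature microRNA pairs with target messages through its seed, bases 2 to 8. In a snoRNA host the small nucleolar RNAs lie in the introns and are released after splicing. They guide chemical modification of ribosomal and spliceosomal RNA. The spliced exons of most SNHG genes code for no known protein, and several of these transcripts, GAS5 among them, are broken down by nonsense-mediated decay when they are translated.

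A selection of mature microRNAs, mostly 1 arm of each hairpin, is shown for the 4 leading microRNA hosts, MIR155HG and MIR17HG to identify the small RNAs annotated at these loci. Letters in capitals mark the seed. The sequences are from RefSeq on GRCh38.p14. All 37 microRNA hosts were matched in its gene table, as were 21 of the 22 snoRNA hosts, the exception being SNHG24. Within their spans 36 of the 37 contained a microRNA on either strand. In MIR7515HG, as in MIRLET7DHG, it lay on the opposite strand.
hsa-let-7d-5p (MIRLET7DHG locus, opposite strand): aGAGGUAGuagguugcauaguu
hsa-miR-762 (MIR762HG): gGGGCUGGggccggggccgagc
hsa-miR-133a-3p (MIR133A1HG): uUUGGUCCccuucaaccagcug
hsa-miR-1-3p (MIR133A1HG): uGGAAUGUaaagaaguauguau
hsa-miR-195-5p (MIR497HG): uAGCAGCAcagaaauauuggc
hsa-miR-497-5p (MIR497HG): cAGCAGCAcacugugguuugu
hsa-miR-155-5p (MIR155HG): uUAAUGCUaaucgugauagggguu
hsa-miR-17-5p (MIR17HG): cAAAGUGCuuacagugcagguag
hsa-miR-20a-5p (MIR17HG): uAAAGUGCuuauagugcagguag
hsa-miR-19a-3p (MIR17HG): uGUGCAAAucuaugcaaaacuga
hsa-miR-19b-3p (MIR17HG): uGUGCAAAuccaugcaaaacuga
hsa-miR-92a-3p (MIR17HG): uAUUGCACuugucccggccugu
The 5p arms of both microRNAs of MIR497HG share 1 seed, as do miR-17-5p and miR-20a-5p, and miR-19a-3p and miR-19b-3p. The microRNAs of MIR155HG, MIR17HG and the let-7d locus were added to those of the 4 leading hosts after values were seen. MIRLET7DHG does not carry let-7d on its own strand: RefSeq lists the symbol as an older name of LINC02603, which GENCODE places on the minus strand of chromosome 9 from 94176602 to 94204568, and MIRLET7D lies inside it on the plus strand. It is therefore called here by its name in the tables and not as a producer of let-7d.

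Gene-assigned totals were 289241 to 483114 counts per library, or 2.02% ± 0.396 (SD, n = 3) of all records. One count equalled 2.29 to 3.30 CPM (counts scaled to an effective library size of 1000000), and 0 counts allow a level of up to 6.86 to 9.89 CPM, the value of 3 counts. These floors cover counting error only. Of 9 markers listed for the line 4 had a count in every library (KRT8, NEFL, VIM and LIN28B), 3 had 1 or 2 counts in all and PAX2 and GATA3 had none. Of 5 blood markers LYZ alone had counts, 23, 13 and 8, or 36.3 CPM against 15.2 CPM for LIN28B. None of 3 liver or 3 fibroblast markers had a count. Exons on the opposite strand were found for KRT8 (525 bp), NEFL (490 bp), VIM (1260 bp), LIN28B (67 bp) and LYZ (599 bp). None were found for PAX2 and GATA3, while the liver marker APOA1 had 123 bp and no count. The part of opposite genes in the marker counts was not tested.

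The kit preserves strand, but the strand setting used for counting was not found in the sources. Counts listed under a host, or under any other gene, that overlaps a gene on the opposite strand may therefore come from that gene. A host level is the value listed under its name. Records without a feature were 91.2% ± 0.472 of all records (SD, n = 3). The antisense RNA TSIX alone held 17.9%, 28.5% and 17.1% of gene-assigned counts in replicates 1, 2 and 3. The part of the strand setting in these values was not tested.

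microRNA hosts together received far more counts than snoRNA hosts, although a larger share of them had no count. Of the 22 snoRNA hosts 15 had a count in at least 1 library and 7 had a count in every library. Of the 37 microRNA hosts 15 had a count in at least 1 library and 10 in every library. Over all gene names 29.2% had a count in every library, close to the shares of 27.0% for microRNA hosts and 31.8% for snoRNA hosts. No count in any library was recorded for 45.3% of all names, for 59.5% of microRNA hosts and for 31.8% of snoRNA hosts. MIR1-1HG, MIR100HG and MIR124-2HG were the first in alphabetical order of the 22 microRNA hosts at 0, and SNHG11, SNHG15 and SNHG18 the first of the 7 snoRNA hosts at 0. Among the microRNAs of these first hosts, miR-1 is known from muscle and miR-124 from neurons.

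**Figure D1:**
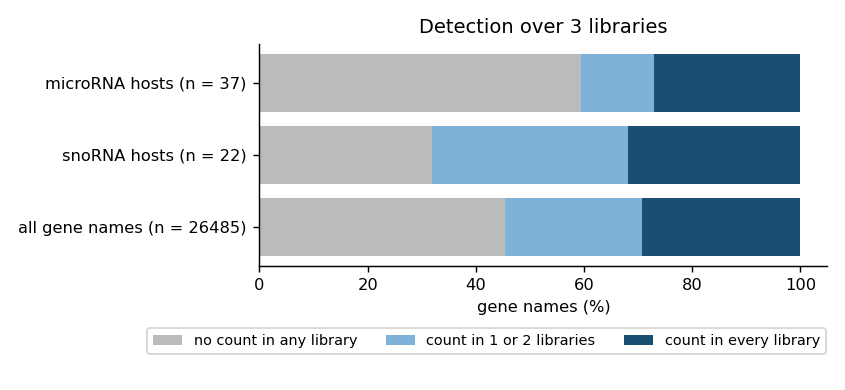
Percentage of gene names (x axis) with no count, with a count in 1 or 2 libraries and with a count in every library, for 37 microRNA hosts, 22 snoRNA hosts and all 26485 names. Names without a count (grey) are 59.5%, 31.8% and 45.3%, and names with a count in 1 or 2 libraries are 5 of 37 microRNA hosts and 8 of 22 snoRNA hosts.

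The summed counts of the classes differed by more than an order of magnitude in every library. microRNA hosts together received 1133, 1290 and 843 counts in replicates 1, 2 and 3, and snoRNA hosts received 66, 66 and 44. The microRNA host sum thus lay above the snoRNA host sum in each library, by 17.2 to 19.5 times. On the CPM scale the sums were 2781 ± 192 and 149 ± 3.79 (SD, n = 3 each), and the log2 ratio of snoRNA to microRNA hosts was -4.21 ± 0.10 (SD, n = 3). An exact sign-flip permutation test over 3 libraries, two-sided, gave p = 0.25, the smallest value that this number of libraries allows. The classes held 0.278% ± 0.0125 and 0.0150% ± 0.0012 of gene-assigned counts (SD, n = 3 each).

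The large microRNA host sum came from a few members. MIRLET7DHG alone made up 50.9% ± 1.33 of the class counts, and the 4 highest members made up 92.4% ± 2.85 (SD, n = 3 each). In the snoRNA class SNHG7 made up 32.3% ± 12.3 and the 4 highest 63.6% ± 8.02 (SD, n = 3 each). The median member within a library was at 0 CPM among microRNA hosts in all 3 libraries and at 1.53 ± 1.33 CPM among snoRNA hosts (SD, n = 3). With levels first averaged over the libraries, the medians were 0 CPM for microRNA hosts, 3.38 CPM for snoRNA hosts and 1.10 CPM for all gene names. Among members with a count the order was the other way, with medians of 34.6 CPM for 15 microRNA hosts, 4.92 CPM for 15 snoRNA hosts and 7.89 CPM for the 14482 names with a count.

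**Figure D2:**
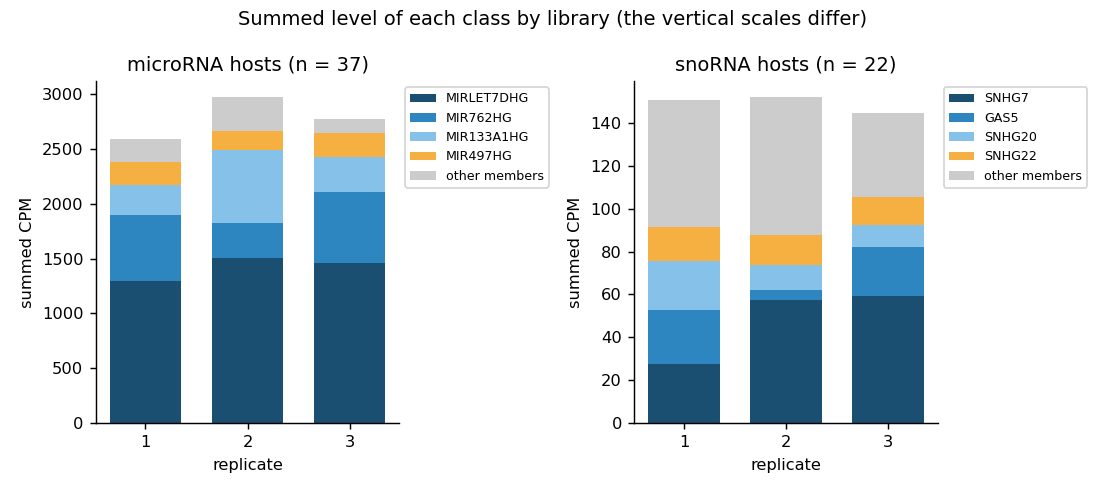
Summed CPM (y axis, with a separate scale for each panel) by library for both classes, split into the 4 highest members and the rest. MIRLET7DHG makes up 50.9% of the microRNA host counts on average, and the members outside the 4 highest hold a larger share of the counts among snoRNA hosts than among microRNA hosts.

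The 4 leading microRNA hosts received at least 66 counts in every library. MIRLET7DHG received 565, 652 and 442 counts in replicates 1, 2 and 3, or 1417 ± 111 CPM (SD, n = 3). It was the highest member in all 3 libraries, and its values did not overlap those of any other host. MIR762HG, which carries miR-762 and lies on chromosome 16 from 30875222 to 30895220, received 266, 139 and 197 counts, or 526 ± 179 CPM (SD, n = 3). Replicate 2 was its lowest library. MIR133A1HG, on chromosome 18 from 21825487 to 21831410, carries miR-133a and miR-1, the classic microRNAs of heart and skeletal muscle. It received 119, 290 and 99 counts, or 422 ± 215 CPM (SD, n = 3), with replicate 2 far above the other libraries. Beside it, the muscle markers MYH7 and DES had no count and CKM had 3, 0 and 1, so the summed level of these 3 genes was 0 to 6.86 CPM. The MIR133A1HG and MIR762HG ranges overlapped, and their order was reversed in replicate 2. MIR497HG carries miR-195 and miR-497, which act on cell cycle messages, and lies on chromosome 17 from 7015818 to 7019659. It received 94, 76 and 66 counts, or 203 ± 23.7 CPM (SD, n = 3), with the libraries close together.

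The other microRNA hosts had 38 or fewer counts in any library. MIR600HG received 25, 32 and 10 counts, or 54.6 ± 20.5 CPM (SD, n = 3). MIR155HG, the host of the immune-cell microRNA miR-155, received 10, 38 and 10 counts, or 47.8 ± 34.8 CPM (SD, n = 3), and replicate 2 was again the high library. Without replicate 2 its mean was 29.5 CPM. MIR181A2HG, the host of miR-181a and miR-181b, showed the same order with 7, 31 and 5 counts. MIRLET7BHG, which carries let-7a-3 and let-7b, received 18, 23 and 4 counts. MIR17HG, the host of the growth-promoting miR-17 to miR-92a cluster, received 19, 5 and 6 counts, or 24.9 ± 16.6 CPM (SD, n = 3), and was highest in replicate 1. The remaining 6 microRNA hosts with a count had 4 or fewer in any library: MIR202HG had 2, 1 and 4, and MIR210HG, whose microRNA responds to low oxygen, had 2, 1 and 0.

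Per kilobase of merged exon, the scale on which different genes can be compared, the order of the leading hosts was nearly the same. MIRLET7DHG stood at 1074 ± 84.3 CPM per kilobase, MIR762HG at 290 ± 98.7 and MIR133A1HG at 96.5 ± 49.1 (SD, n = 3 each). MIR497HG at 52.7 ± 6.17 and MIR181A2HG at 52.3 ± 48.2 CPM per kilobase (SD, n = 3 each) did not differ beyond their spread, and neither did MIR155HG at 29.9 ± 21.8. The highest snoRNA hosts on this scale were SNHG19 at 15.7 ± 21.7, SNHG8 at 12.1 ± 8.43 and SNHG7 at 11.1 ± 4.13 CPM per kilobase (SD, n = 3 each), which likewise overlapped one another. The SNHG19 value rests on 1, 6 and 0 counts over 342 bp of exon.

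**Figure D3:**
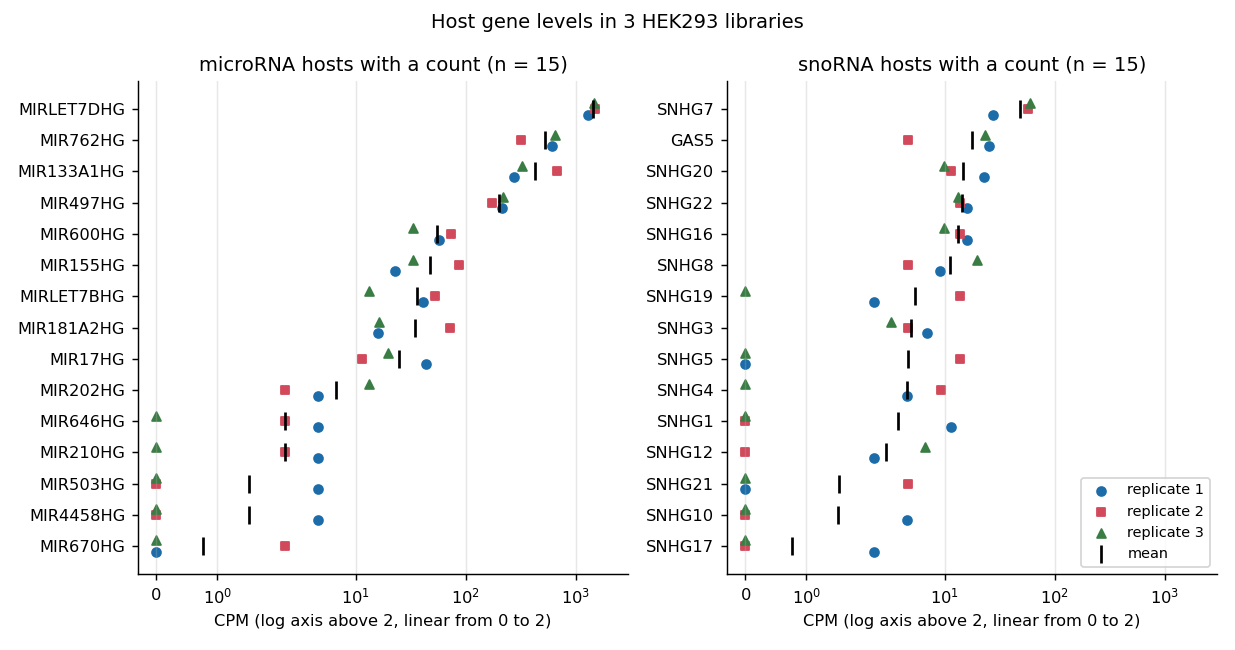
CPM (x axis, logarithmic above 2 and linear below) of the 15 microRNA hosts and 15 snoRNA hosts with a count, with 1 symbol per library and a bar at the mean. The 4 leading microRNA hosts average 203 to 1417 CPM, whereas snoRNA hosts average 48.1 CPM or less and 8 of the 15 drop to 0 in at least 1 library.

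Among snoRNA hosts only SNHG7 had at least 10 counts in every library. SNHG7, on chromosome 9 from 136721366 to 136728184, received 12, 25 and 18 counts, or 48.1 ± 17.9 CPM (SD, n = 3). GAS5, a growth-arrest transcript with 11 snoRNAs in its span, the most of any member, received 11, 2 and 7 counts, or 17.6 ± 11.3 CPM (SD, n = 3), and was lowest in replicate 2. SNHG20 received 10, 5 and 3 counts and SNHG22 received 7, 6 and 4, both hosts of small Cajal body RNAs. SNHG16, which carries SNORD1A to SNORD1C, received 7, 6 and 3 counts and SNHG8, the host of SNORA24, received 4, 2 and 6, for a mean of 11.2 CPM, or 6.65 CPM without replicate 3. SNHG1, with 8 snoRNAs in its span, received 5, 0 and 0 counts, and SNHG3, the host of SNORA73A and SNORA73B, received 3, 2 and 1. SNHG5 had 6 counts in replicate 2 and none elsewhere. The ranges of SNHG22, SNHG16 and SNHG8, all at 7 or fewer counts per library, overlapped one another.

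The small RNAs themselves received almost no counts under their own names. RefSeq placed 64 microRNAs inside the spans of microRNA hosts and 51 snoRNAs or small Cajal body RNAs inside those of snoRNA hosts, whatever their strand. Of the 63 small RNAs in microRNA hosts that the tables name, 2 had a count, and of the 50 in snoRNA hosts, 3 had a count. Over all gene names 54.7% had a count. Whether these libraries capture RNAs this short was not tested, so few counts do not show that the small RNAs were absent. SNORA73A in SNHG3 had 7, 2 and 0 counts, and SNORA61 in SNHG12, SNORD60 in SNHG19 and MIR181A2 in MIR181A2HG had a single count each. MIR762 was the exception, with 213, 92 and 113 counts, or 357 ± 138 CPM (SD, n = 3). Its 83 bp hairpin lies in an intron of MIR762HG on chromosome 16 from 30893903 to 30893985, and all 83 bp are opposite an exon of BCL7C, a subunit of chromatin remodelling complexes.

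Whether replicates varied by more than counting noise was read from edgeR's Poisson fit over every gene that reached 10 counts in each library, with Benjamini-Hochberg adjustment. Over 2564 genes 45.8% were called at an adjusted p under 0.05. Of the 59 hosts 7 could be tested, 6 microRNA hosts and SNHG7, and 3 of these were called, a share near that of all genes. MIR133A1HG (adjusted p = 9.0e-18) and MIR155HG (adjusted p = 0.00024) were highest in replicate 2. Of all genes tested 22.6% were called and highest in replicate 2. On the log2 scale replicate 2 exceeded the mean of the other libraries by 1.16 for MIR133A1HG and by 1.63 for MIR155HG. MIR762HG (adjusted p = 4.8e-11) was lowest in replicate 2 and differed from the mean of the others by a log2 value of -0.97, where 17.0% of all genes tested were called and lowest in replicate 2. MIRLET7DHG lay at the threshold with an adjusted p of 0.0502, and passed with DESeq2 size factors (0.0011) and without replicate 3 (0.00099). MIR497HG (0.412), MIR600HG (0.112) and SNHG7 (0.0919) were not called in this edgeR fit. All 3 calls rested on replicate 2: without it none of the 7 hosts was called by edgeR and 1 had an unadjusted p under 0.05, with adjusted p of 0.450 for MIR133A1HG, 0.678 for MIR155HG and 0.729 for MIR762HG, and 263 of 2784 genes were called in all. Against a negative binomial null with edgeR's common dispersion no host and no other gene was called, and 136 genes, among them 1 host, had an unadjusted p under 0.05. That dispersion was estimated from the same 3 libraries, so the null already takes in the spread under test. The absence of calls against it therefore cannot decide whether the hosts varied.

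**Figure D4:**
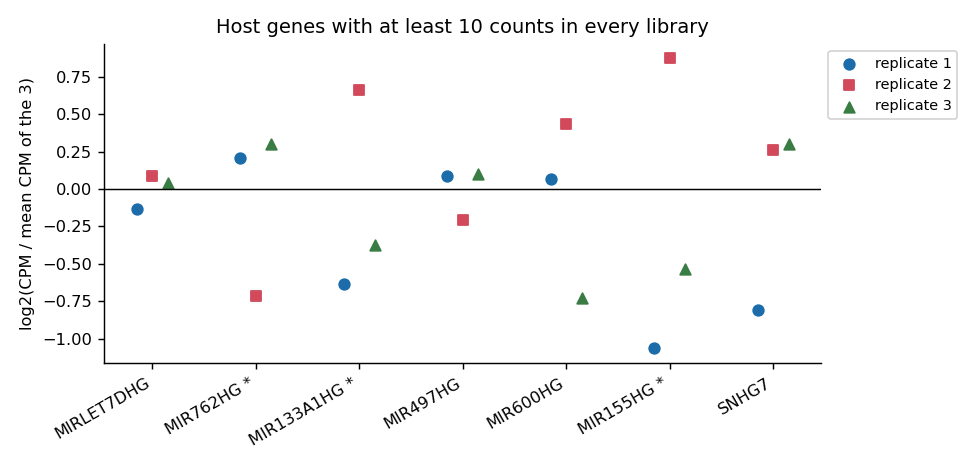
log2 of CPM over the mean CPM of the 3 libraries (y axis) for the 7 host genes that could be tested, with 1 symbol per library; an asterisk marks an adjusted p under 0.05. Replicate 2 is the high point for MIR133A1HG and MIR155HG and the low point for MIR762HG.

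Genes on the other strand bear on what these counts measure, as stated above for the strand setting. Exons on the opposite strand in GENCODE 29 were found for 9 of 37 microRNA hosts and for 9 of 21 matched snoRNA hosts, against 31.8% of all matched names. Those 9 microRNA hosts held 78.8% ± 8.53 of the class counts, and the 9 snoRNA hosts held 69.7% ± 6.94 (SD, n = 3 each), where all names with an opposite exon held 76.3% ± 1.61 of gene-assigned counts (SD, n = 3). Of the 1319 exonic bases of MIRLET7DHG 85.7% lay opposite other exons, as did 59.6% of MIR762HG and 38.2% of MIR497HG. MIR133A1HG had no opposite exon and lay opposite the body of MIB1, a ubiquitin ligase of Notch signalling, which had no count in any library. MIR181A2HG lay likewise opposite the body of NR6A1, a nuclear receptor gene, which had 7, 3 and 7 counts.

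snoRNA hosts mostly had fewer counts than the gene opposite. For each host the partner with the longest shared exon was taken among names in the tables. Of 8 snoRNA hosts with such a partner, the partner was higher per kilobase in every library for 6 and the host for none. The same held for 19.3% of 838 non-coding genes with such a partner. GAS5-AS1, which shares 42 bp with GAS5, received 439, 500 and 415 counts against 11, 2 and 7 for GAS5. Per kilobase GAS5-AS1 stood at 1693 ± 264 CPM and GAS5 at 4.85 ± 3.11 (SD, n = 3 each), so the ranges lay far apart. FAM69B, with 1094 bp shared, received 141, 109 and 110 counts against 12, 25 and 18 for SNHG7. MCMDC2, a gene of meiotic recombination, received 324, 309 and 230 counts where SNHG6 had none in any library. FSD2 received 603, 658 and 500 counts against 0, 2 and 0 for SNHG21, and its longest opposite overlap, 1847 bp, was with another gene, AC105339.2. TRNAU1AP, a selenocysteine incorporation factor, shares only 8 bp with SNHG12 and received 51, 57 and 47 counts against 1, 0 and 2. MYO5B, a motor protein of vesicle transport, received 49, 61 and 19 counts against 7, 6 and 4 for SNHG22. Per kilobase this gap was small, at 10.0 ± 3.76 against 5.53 ± 0.569 CPM (SD, n = 3 each). The log2 ratio was 0.21 in replicate 3. For SNHG4 with SIL1, a chaperone cofactor, and SNHG10 with GLRX5, an iron-sulfur cluster protein, both genes had 4 or fewer counts per library, and neither was the higher one throughout.

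Among microRNA hosts 4 had such a partner. The host was higher per kilobase in every library for 2 and the partner for none, where the non-coding gene was higher for 39.9% of the 838. The difference between the classes was not tested. BCL7C received 12, 8 and 2 counts against 266, 139 and 197 for MIR762HG. C17orf49 had no count in any library against 94, 76 and 66 for MIR497HG, and the readthrough gene RNASEK-C17orf49 on the same strand had 1, 1 and 0. PRR34 with 14, 5 and 12 counts and MIRLET7BHG changed order between libraries, and BCL2L11, a cell death gene opposite MIR4435-2HG, had 0, 2 and 0 counts against none. The longest partner of MIRLET7DHG, AL158152.1, is not among the names in the tables. The part of the strand setting in these pairs was not tested.

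**Figure D5:**
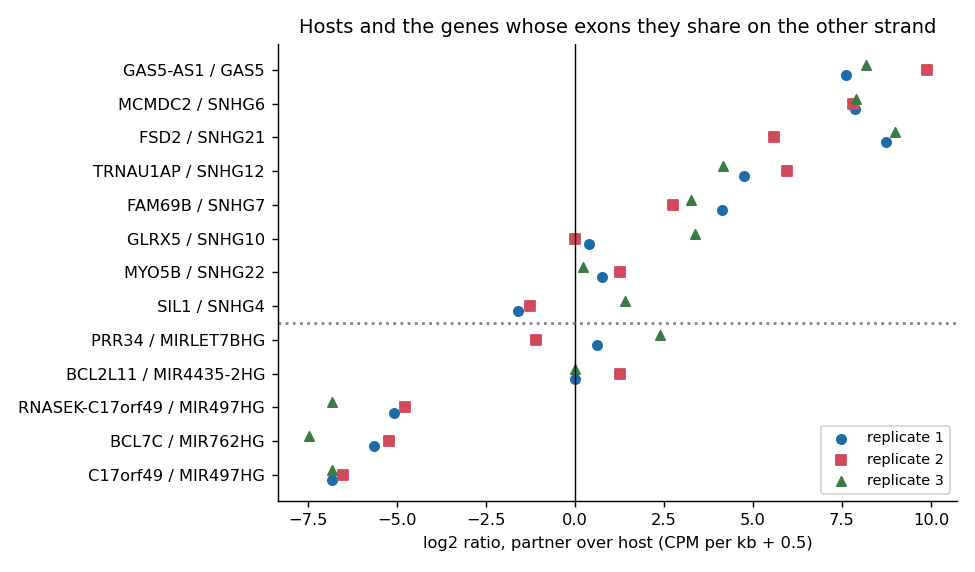
log2 ratio of partner to host (x axis, CPM per kilobase of exon plus 0.5) in each library for 13 pairs that share exonic bases on opposite strands, with snoRNA hosts above the dotted line and microRNA hosts below. Most snoRNA host pairs lie to the right of 0 (partner higher), and MIR762HG and MIR497HG lie to the left (host higher); ratios with a gene at 0 depend on the added 0.5.

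Starts of snoRNA host transcripts are shown because many of these genes begin with a run of pyrimidines, the hallmark of growth-regulated messages. The letters CTTT were searched on the transcript strand within 10 bases either side of the RefSeq start, and AAAG for the other strand. CTTT was present in 6 of 17 snoRNA hosts (35.3%) and 7 of 30 microRNA hosts (23.3%) in the RefSeq promoter table, and in 11.7% of all 27305 genes there. AAAG was present in 5.88% of snoRNA hosts, 16.7% of microRNA hosts and 8.53% of all genes. A match is a description of letters and not of a functional site. The lines show the pair of snoRNA hosts with the motif at the start base and the pair with most counts among the 6. They give 20 bases before the start, the start base and 20 after, on GRCh38.p14, with CTTT in capitals.
SNHG5, chr6:85678713-85678753, minus strand: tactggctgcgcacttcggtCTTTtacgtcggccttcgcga
SNHG8, chr4:118278742-118278782, plus strand: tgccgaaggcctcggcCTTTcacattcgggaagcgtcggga
SNHG16, chr17:76557744-76557784, plus strand: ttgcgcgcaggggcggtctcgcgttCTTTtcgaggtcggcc
SNHG19, chr16:2155338-2155378, minus strand: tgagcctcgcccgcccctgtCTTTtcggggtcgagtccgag
In SNHG5 and SNHG19 the C of the motif is the annotated start base, as it is in the microRNA host MIR325HG. GAS5 and SNHG7 were not among the 6 snoRNA hosts with the motif, and none of the 6 exceeded 7 counts in a library.

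Genes that process these RNAs are set here beside all gene names, of which 54.7% had a count and whose median was 1.10 CPM, and beside all genes tested, of which 45.8% were called. All 16 genes of microRNA processing had a count, with a median of 12.5 CPM, 3 could be tested (RAN, PRKRA and DGCR8) and none was called by edgeR's fit, and none had an unadjusted p under 0.05. RAN, the nuclear export GTPase, had 63.0 ± 19.7 CPM, XPO5, the hairpin exporter, had 53.7 ± 32.7 and PRKRA, a DICER1 partner, had 53.4 ± 5.51 (SD, n = 3 each). DGCR8 had 23, 14 and 10 counts, whereas DROSHA had 4, 2 and 0, DICER1 had 5, 6 and 3 and AGO2 had 0, 2 and 0. Of 19 snoRNP core and assembly genes 12 had a count, with a median of 1.52 CPM over all 19, and none reached 10 counts in every library. ZNHIT6, an assembly factor, had 3, 4 and 15 counts, NOP58, a core protein of box C/D particles, had 10, 9 and 2, and NHP2, a core protein of box H/ACA particles, had 9, 5 and 4, while AQR, GAR1 and NAF1 had none. Of 16 genes of nonsense-mediated decay 15 had a count, with a median of 6.97 CPM over all 16, SMG8 being the exception. PNRC2, a decapping cofactor, received 64, 118 and 47 counts, or 191 ± 70.2 CPM (SD, n = 3), and was the single one tested and called (edgeR, adjusted p = 0.00022), highest in replicate 2. SMG1, the kinase of UPF1, had 8, 10 and 6 counts and CASC3, a component of the exon junction complex, had 6, 7 and 8. Exons on the opposite strand were found for 10 of the 16 microRNA processing genes, 7 of the 19 snoRNP genes and 5 of the 16 decay genes. Their part in these counts was not tested.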

How the data were processed

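Per the labels' protocols, ribosomal RNA was removed from the RNA of 3 HEK293 samples before strand-preserving library construction, while the sample titles speak of mRNA. The submitters' processing notes name Trimmomatic, TopHat2 2.2.5, HTSeq 0.11.2 and the build hg38. Not given in the sources are the annotation and the strand option. The deposited files hold raw read counts per gene name as the authors' counter wrote them. The 5 summary lines of each file, which name no gene, were left out of library sizes; records without a feature were 91.2% ± 0.472 and records not uniquely aligned were 6.77% ± 0.753 of all records (SD, n = 3).

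CPM used TMM effective library sizes. Because the series has 1 group, variation between replicates was tested with an intercept-only Poisson fit in edgeR 4.0.16 (R 4.3.3) on genes that reached 10 counts in each library, using the residual deviance and Benjamini-Hochberg adjustment over all genes tested. DESeq2 1.42.0 gave alternative size factors. The script was tested on simulated data. Of the 26485 names 24653 (93.1%) matched GENCODE 29 genes, 753 of them through older RefSeq symbols, and exon lengths and opposite-strand overlaps come from these. A prior of 0.5 CPM per kilobase was added in partner ratios, which are no bounds where a gene is at 0. Small RNAs inside hosts and all sequences come from RefSeq. Pairs were described over non-coding genes with at least 200 bp of exon.

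Genes were named by rule: members with at least 10 counts in every library, the 6 highest of each class, called members, GAS5, the first 3 of each class at 0, the 3 highest genes of each list and the opposite-strand partners. Others were named after their values were seen. The members and lists were chosen with earlier results of these data known.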

Additional observations from a re-analysis of the deposited data

How the results depend on the processing

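Of 59 hosts 52 had too few counts to test, and why was not tested. The called genes numbered 1175 of all genes and 3 hosts, and 2914 and 6 without a count filter. With at least 5 counts in every library 5 hosts were called, and with the negative binomial null 0 genes and 0 hosts. The dispersion of that null came from the same libraries, so its lack of calls cannot decide whether hosts varied. Leaving out 1 replicate at a time gave 263 to 1093 genes and 0 to 4 hosts, with both lowest values without replicate 2. The log2 ratio of snoRNA to microRNA hosts was -3.76 without the highest member of each class, -3.64 for members without an opposite exon, -4.73 per kilobase and -4.27 to -4.18 with 1 replicate left out. Members without an opposite exon still included MIR133A1HG and MIR181A2HG, which lie opposite a gene body. The 17 microRNA hosts with no opposite gene held only 4.97% ± 1.28 of their class counts. The 12 such snoRNA hosts held 30.3% ± 6.94 of theirs (SD, n = 3 each). In replicates 1, 2 and 3 the shares were 5.30%, 6.05% and 3.56% of 1133, 1290 and 843 microRNA host counts. For snoRNA hosts they were 36.4%, 31.8% and 22.7% of 66, 66 and 44 counts. The gap between hosts with no opposite gene was thus far smaller than the ratios above, and its log2 value was not computed. snoRNA hosts with at least 3 counts in every library numbered 4, and those with a count in every library 7 to 9 with 1 replicate left out. The share of microRNA host counts on members with an opposite exon became 95.0% when any opposite gene body counted. For snoRNA hosts it became 55.8% when at least 100 shared bases were required. The causes of these shifts were not tested beyond what each setting changes. Of 63 adjusted p-values of single hosts under the alternatives, 55 kept their side of the threshold, 6 lost the call and 2 gained it, and of 60 mean levels MIR497HG alone moved by more than 1 SD, to 228 CPM without replicate 2. Within wider SDs MIR155HG fell to 29.5 CPM without replicate 2 and SNHG8 to 6.65 CPM without replicate 3, each by over 1.5 times. No value changed sign. No paired analysis was possible because the series has 1 group.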

Other observations

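snoRNA host genes that carry other names, and so lie outside the symbol rule, together held more counts than the 22 snoRNA hosts under the rule. A list of 39 snoRNA hosts with other names, most of them ribosomal protein and translation factor genes, summed to 763 to 1125 CPM per library. In this list 27 of the 39 had a count in every library, against 29.2% of all gene names. RPL10, a protein of the large ribosomal subunit, received 97, 78 and 76 counts, EEF1B2, an elongation factor subunit, received 54, 73 and 27, and RPL7A received 33, 25 and 11. DDX39B, EIF4A1 and HIF1AN had no count. ZFAS1 and DANCR, long non-coding snoRNA hosts that resemble the SNHG genes, received 7, 2 and 4 counts and 4, 2 and 4 counts. Of 6 genes of this list tested with edgeR 2 were called, where 45.8% of all genes tested were called. Exons on the opposite strand were found for 19 of the 39, with 2543 bp for RPL10, 19 bp for EEF1B2 and none for RPL7A. Their part in these counts was not tested.

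A list of 42 microRNA hosts with other names summed to 2027 to 2220 CPM per library. This was below the 2590 to 2974 CPM of the 37 microRNA hosts under the rule. In the list 19 had a count in every library, against 29.2% of all gene names. NFYC, a subunit of the CCAAT-binding factor and host of miR-30e and miR-30c, received 286, 186 and 172 counts. DLEU2, the non-coding host of miR-15a and miR-16, received 177, 98 and 112, and LPP, a focal adhesion gene and host of miR-28, received 81, 150 and 59. ARPP21, COPZ1 and CTDSPL had no count. All 6 genes of this list that could be tested with edgeR were called, 3 of them highest and 2 lowest in replicate 2, where 45.8% of all genes tested were called. Opposite-strand exons were found for 24 of the 42, and their part in these counts was not tested.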
